A study of Mus musculus with 7 samples.

Results

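The genes of protein folding in the endoplasmic reticulum (ER) and of the unfolded protein response were followed in mouse bone marrow hematopoietic stem cells (HSCs). The 36 genes were chosen by name for their function: chaperones of the ER, disulfide isomerases, the stress sensors and the machinery of ER-associated degradation. They and their role groups were chosen with earlier results of these data known. All 36 were found among the 55855 gene identifiers of the deposited table, 1 of them (Selenos) through its older symbol Vimp. Messenger RNA of HSCs was measured in 4 libraries with deleted Fth1 (genotype Fth1 delta/delta, called Fth1-deleted) and in 3 libraries with floxed, undeleted Fth1 (genotype Fth1 fl/fl, called control), all from mice aged 2 months. Fth1 encodes ferritin heavy chain, the subunit that oxidizes iron for storage, and the series text describes its deletion as conditional in the hematopoietic system, to learn what iron does in HSCs. The Cre driver, the sort markers and whether each library came from a separate mouse are not given in the sources used here, so p values measure the spread between libraries, which may be technical.

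Proteins that enter the ER are folded there by chaperones, which hold unfolded chains, and by disulfide isomerases, which join their cysteines, while chains that fail are sent back to the cytosol for degradation. When unfolded chains build up, the sensors encoded by Ern1, Eif2ak3 and Atf6 start the unfolded protein response: Ern1 splices the RNA of the transcription factor Xbp1, Eif2ak3 slows translation, and cleaved Atf6 moves to the nucleus. HSCs are known to make protein at a low rate, and in mice their maintenance is known to need ER-associated degradation by the Sel1l complex.

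Many genes of this response carry an ER stress element, a promoter sequence bound by Atf6 and Xbp1 together with the CCAAT-binding factor NF-Y. Promoter windows of 300 bases, from 250 before to 50 after the RefSeq gene start (GRCm38.p6), were found for 31 of the 36 genes. Hyou1, Sil1, Manf, Atf6 and Derl1 were not matched. Each window was searched on both strands for the ER stress element ERSE (CCAAT, 9 free bases, then CCACG), for ERSE-II (ATTGG, 1 free base, then CCACG), for the unfolded protein response element (TGACGTGG) and for a composite site of the stress factors Ddit3 and Atf4 (TGATGCAA). ERSE was found in 10 of the 31 genes (32.3%), against 37 of 27025 genes with a window (0.137%). ERSE-II was found in 2 genes (6.45%, against 0.0444% of all genes) and the composite site in 1 (3.23%, against 1.03%). The third, TGACGTGG, was in none of these windows, and in 0.714% of all genes. A match is a description of letters, not of a bound site.
The promoters of 3 genes are shown because they hold the elements of the most abundant lumenal chaperone, a pair of elements, and a mixed set. They are written 5′ to 3′ on the gene's strand, with matches in capitals. They lie at chr2:34771840-34772139 on the plus strand (Hspa5), chr10:86705395-86705694 on the minus strand (Hsp90b1) and chr8:94386179-94386478 on the plus strand (Herpud1).
Hspa5: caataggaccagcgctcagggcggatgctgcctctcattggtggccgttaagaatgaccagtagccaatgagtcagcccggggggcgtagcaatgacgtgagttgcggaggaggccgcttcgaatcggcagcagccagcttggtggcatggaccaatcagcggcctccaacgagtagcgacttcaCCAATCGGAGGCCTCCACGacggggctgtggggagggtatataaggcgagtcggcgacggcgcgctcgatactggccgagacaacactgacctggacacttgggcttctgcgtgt
Hsp90b1: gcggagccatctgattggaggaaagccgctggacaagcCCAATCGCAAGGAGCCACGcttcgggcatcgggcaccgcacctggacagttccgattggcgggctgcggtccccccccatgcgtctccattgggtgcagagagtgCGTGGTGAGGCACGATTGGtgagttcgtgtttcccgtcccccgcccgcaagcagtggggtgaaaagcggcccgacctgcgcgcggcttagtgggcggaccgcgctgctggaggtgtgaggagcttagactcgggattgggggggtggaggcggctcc
Herpud1: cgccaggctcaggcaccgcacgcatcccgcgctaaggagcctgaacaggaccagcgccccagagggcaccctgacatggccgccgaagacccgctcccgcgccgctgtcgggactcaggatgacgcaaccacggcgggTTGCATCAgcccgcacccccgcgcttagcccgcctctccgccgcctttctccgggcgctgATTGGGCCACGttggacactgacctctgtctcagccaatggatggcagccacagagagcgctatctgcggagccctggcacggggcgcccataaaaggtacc
The matched elements are shown because 12 of the 31 genes with a window carry ERSE or ERSE-II. They are written in the motif's orientation, with the fixed letters in capitals and the free positions in lower case.
Hspa5 ERSE: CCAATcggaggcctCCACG
Hsp90b1 ERSE: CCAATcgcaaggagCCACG
Hsp90b1 ERSE: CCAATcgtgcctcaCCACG
Dnajb11 ERSE-II: ATTGGcCCACG
Dnajc3 ERSE: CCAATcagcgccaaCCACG
Creld2 ERSE: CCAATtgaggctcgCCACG
Calr ERSE: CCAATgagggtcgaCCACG
Canx ERSE: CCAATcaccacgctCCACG
Pdia6 ERSE: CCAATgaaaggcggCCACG
Ero1lb ERSE: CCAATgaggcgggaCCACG
Herpud1 ERSE-II: ATTGGgCCACG
Syvn1 ERSE: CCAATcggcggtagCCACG
Derl3 ERSE: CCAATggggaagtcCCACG
The element of Dnajb11 lay 7 to 17 bases after the gene start, and the others between 212 and 26 bases before it.

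**Figure D1:**
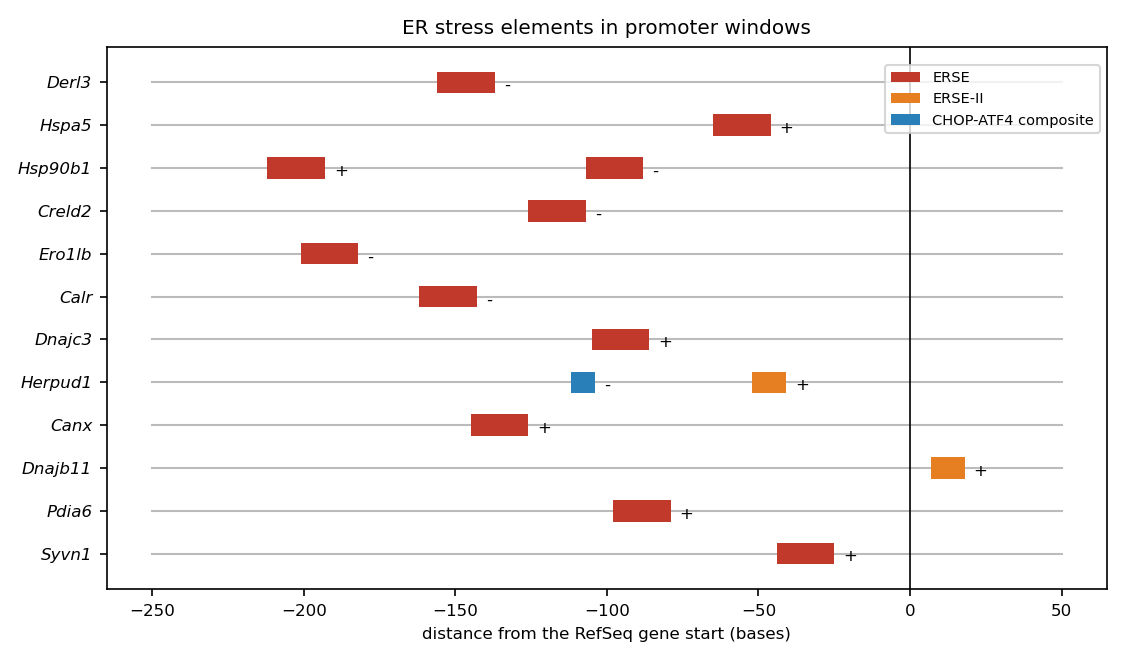
Position of ER stress elements in the promoter windows of 12 genes, as distance in bases from the RefSeq gene start (vertical line at 0), with the genes ordered from the highest log2 difference at the top. Bars are matches and the sign beside each is its strand relative to the gene; Hsp90b1 has 2 ERSE matches, and Herpud1 has an ERSE-II and a composite site.

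The deposited values are FPKM (fragments per kilobase of gene length, scaled to the counted reads). Counted reads, read back from the steps of the values, were 12806902 to 15453168 in Fth1-deleted and 12058392 to 15046058 in control libraries. The 36 genes took 82175 to 97538 of these in Fth1-deleted and 67562 to 80325 in control libraries. Fth1 itself was at 202, 333, 358 and 114 FPKM in Fth1-deleted libraries, against 552, 659 and 638 in control libraries (limma adjusted p = 0.193). The groups did not overlap, and the ratio of means was 0.408.
Some other measures also lay apart between the groups, and others overlapped. Ribosomal RNA genes held 1.20% to 1.37% of summed FPKM in Fth1-deleted libraries, against 0.0677%, 1.06% and 0.0238% in control libraries 1, 2 and 3. All 12 genes of the HSC marker list were detected in every library except Hoxb5, which was at 0 in Fth1-deleted 2. Their summed FPKM was 636 to 855 in Fth1-deleted and 944 to 1539 in control libraries. The 8 macrophage markers summed to 71.1 to 166 FPKM in Fth1-deleted libraries (7 to 8 detected) and 25.8 to 53.4 in control libraries (6 to 7 detected, Adgre1 at 0 in all 3). The 6 mast cell and basophil markers summed to 17.3 to 44.4 FPKM in Fth1-deleted and 0 to 12.9 in control libraries, with Mcpt8 at 0 throughout. Fcer1a was at 0 in 3 of 4 Fth1-deleted and all 3 control libraries, and Gzmb in 2 of 4 and all 3. The 10 neutrophil and myeloid progenitor markers summed to 171 to 591 FPKM in Fth1-deleted and 153 to 339 in control libraries, with Fcnb at 0 throughout. Prtn3 held most of this sum in control libraries, at 132 to 287 FPKM in Fth1-deleted and 136 to 315 in control libraries, while Mpo was at 15.4 to 135 FPKM in Fth1-deleted and 0.255 to 3.63 in control libraries. Elane, Ctsg and Cebpe were each at 0 in 2 of 4 Fth1-deleted and in all 3 control libraries, and Ltf in 3 of 4 and in all 3. Erythroid markers summed to 183 to 636 FPKM in Fth1-deleted and 229 to 731 in control libraries, and megakaryocyte markers to 824 to 969 in Fth1-deleted and 553 to 826 in control libraries. The part of these measures in the differences below was not tested. A fit with ribosomal RNA as a covariate is given, but this share nearly follows the groups except in control 2. That fit rests largely on control 2 and cannot separate ribosomal RNA from genotype. Its SE is wider, for Hspa5 0.34 against 0.21 without the covariate. In bulk samples, a change in the share of cells of a type and a change in RNA per cell cannot be told apart.

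Over the 36 genes, the summed RNA level of ER folding was higher in Fth1-deleted than in control libraries. The chaperone gene Sdf2l1 had the highest and the sensor gene Ern1 the lowest log2 difference, but no single gene passed the test. Summed over the genes, FPKM were 4504, 4206, 4410 and 4345 in the Fth1-deleted libraries, against 3762, 3593 and 3831 in the control libraries. The groups of libraries did not overlap in this sum. By role, the sums lay apart only for the lumenal chaperones and for the lectin chaperones Calr and Canx. The latter summed to 981 to 1201 FPKM in Fth1-deleted and 818 to 944 in control libraries. Sums of the other roles overlapped, as for ER-associated degradation (534 to 636 FPKM in Fth1-deleted, 544 to 629 in control libraries). The sum over all 36 genes was 0.522% to 0.578% of all FPKM in Fth1-deleted and 0.485% to 0.506% in control libraries. The mean log2(FPKM + 1) of the genes was 6.01, 5.88, 6.07 and 5.96 in Fth1-deleted libraries, against 5.67, 5.77 and 5.84 in control libraries. The same mean over all 13948 tested genes was 3.91 to 3.97 in Fth1-deleted and 3.91 to 4.03 in control libraries.

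Genes were tested with limma on log2(FPKM + 1), with Benjamini-Hochberg adjustment over all 13948 genes that had a mean FPKM of at least 1. All 36 genes were tested. None passed an adjusted p of 0.05 in either direction, where 8 of all tested genes did (0.0574%, made up of 0.0287% higher and 0.0287% lower), and limma-voom on the recovered reads also called 0 of the 36. An unadjusted p under 0.05 was reached by 9.83% of all tested genes. Among the 36 it was reached by 5 genes higher in Fth1-deleted libraries (13.9% of the 36, against 4.9% of all tested genes) and 1 lower (2.78%, against 4.93%). In 5 genes every Fth1-deleted library lay above every control library (13.9%, against 4.1% of all tested genes), and in 0 every one lay below (against 5.55%). The log2 difference, Fth1-deleted minus control, was above 0 for 24 of the 36 (66.7%), against 48.7% of all tested genes. Its median was 0.22 (0.20 without Derl3, which was at 0 in control), against -0.017 over all tested genes. The median lay between 0.14 and 0.25 under every alternative tried.

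**Figure D2:**
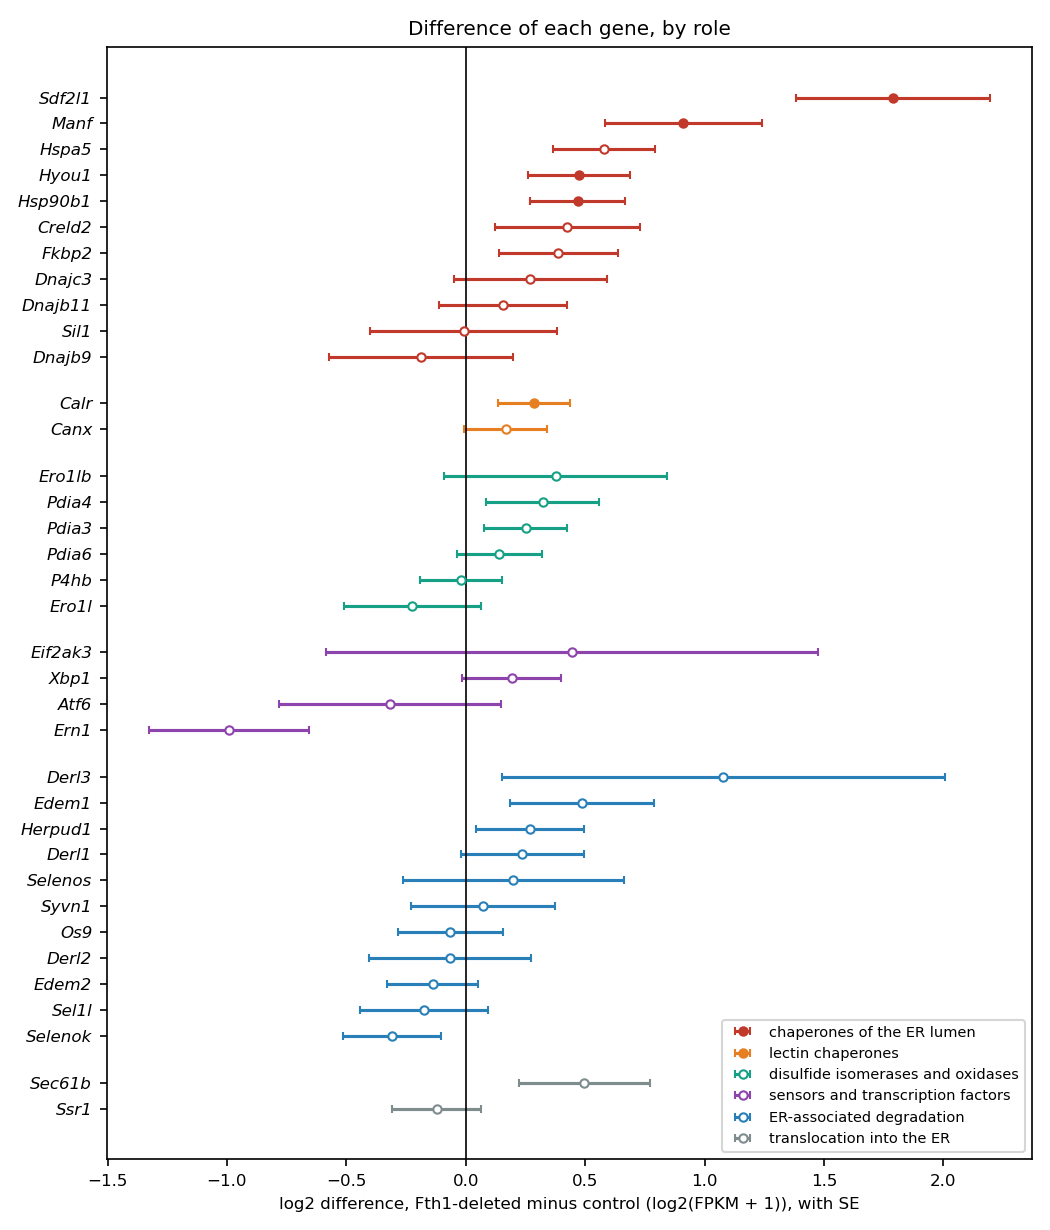
Log2 difference of each gene (Fth1-deleted minus control, from log2(FPKM + 1)), with bars of 1 SE, ordered within role groups. Filled points are the 5 genes whose groups do not overlap (Sdf2l1, Manf, Hyou1, Hsp90b1 and Calr); Ern1 is lowest at -0.99.

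Chaperones of the ER lumen, the proteins that hold chains while they fold, had the highest median difference of the role groups with more than 2 genes. Of the 11 genes 9 had a log2 difference above 0 (81.8%, against 48.7% of all tested genes), with a median of 0.43. In 4 the groups lay apart, all higher (36.4%, against 4.1%), 5 had an unadjusted p under 0.05, all higher (45.5%, against 4.9%), and none passed the adjusted threshold. Their summed FPKM was 949 to 1199 in Fth1-deleted libraries and 692 to 857 in control libraries. The role groups were drawn up with earlier results of these data known, so the shares of this group are a description without a test.

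Sdf2l1, a partner of the co-chaperone Dnajb11 in keeping unfolded proteins soluble, had the largest difference. The gene (ENSMUSG00000022769) lies on chromosome 16 from 17130138 to 17132383 (GRCm38, as for all gene positions here, from GENCODE M21). It was at 75.6, 101, 62.9 and 82.3 FPKM in Fth1-deleted libraries (892 to 1528 reads) and at 49.7, 11.0 and 19.7 FPKM in control libraries (183 to 764 reads). Every Fth1-deleted library lay above every control library, with control 1 apart from the other controls. The ratio of means was 3.01, and the log2 difference 1.79 (SE 0.41, limma adjusted p = 0.193). Without control 1 the log2 difference was 2.35 and the adjusted p 0.0271, so that 1 library decides this call (adjusted p 0.0271 to 0.684 over all alternatives). With the ribosomal RNA covariate the log2 difference was 3.02.

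Manf, a small secreted protein that binds Hspa5 and protects cells under ER stress, was at 80.3, 81.1, 101 and 92.4 FPKM in Fth1-deleted libraries and at 23.2, 65.4 and 65.4 FPKM in control libraries. The groups did not overlap, and control 1 was the lowest. Means were 88.6 ± 9.71 FPKM in Fth1-deleted (SD, n = 4) and 51.3 ± 24.3 FPKM in control libraries (SD, n = 3), a log2 difference of 0.91 (SE 0.33, limma adjusted p = 0.423). Without control 1 it was 0.43, and with the ribosomal RNA covariate 0.29. The gene lies on chromosome 9 from 106838312 to 106891979, and 4.14% of its exon bases are shared with Dcaf1 on the opposite strand. The strand setting of the authors' counting is not given in the sources used here.

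Hspa5, the Hsp70 chaperone that also holds the stress sensors inactive, was the most abundant lumenal chaperone. The gene (ENSMUSG00000026864) spans bases 34771970 to 34777547 of chromosome 2. Its FPKM was 483, 521, 509 and 311 in Fth1-deleted libraries, against 259, 372 and 278 in control libraries. Fth1-deleted 4 stood below the other Fth1-deleted libraries and below control 2, so the groups overlapped. The ratio of means was 1.51 and the log2 difference 0.58 (SE 0.21, limma adjusted p = 0.428). With ribosomal RNA as a covariate the log2 difference was 0.13 (SE 0.34).

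Hsp90b1, the Hsp90 chaperone of the ER, was at 147, 126, 146 and 126 FPKM in Fth1-deleted libraries and at 76.0, 109 and 113 FPKM in control libraries. All 4 Fth1-deleted libraries were above all 3 controls (log2 difference 0.47, SE 0.20, limma adjusted p = 0.477). The log2 difference was 0.29 without control 1, and 0.28 with the ribosomal RNA covariate. The gene lies on chromosome 10 from 86690209 to 86705509, and its exons share 10.3% of their bases with the opposite-strand gene 1810014B01Rik. Hyou1, which exchanges the nucleotide of Hspa5, was at 87.0, 68.3, 101 and 70.8 FPKM in Fth1-deleted libraries and at 58.6, 59.0 and 56.0 FPKM in control libraries. Its control libraries lay close together and below every Fth1-deleted library (chromosome 9, 44379490 to 44392369; log2 difference 0.48, SE 0.21, limma adjusted p = 0.501).

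Fkbp2, a prolyl isomerase of the ER, was at 77.1, 67.8, 64.8 and 78.5 FPKM in Fth1-deleted libraries, against 58.6, 73.8 and 37.6 in control libraries. The groups overlapped through control 2 (log2 difference 0.39, SE 0.25). It was 0.60 without control 2 and 0.13 without control 3, and the sign turned to -0.16 with the ribosomal RNA covariate. Creld2, an ER stress-induced protein with isomerase activity, was at 32.6 to 56.2 FPKM in Fth1-deleted and 21.5 to 43.2 in control libraries. Dnajc3, a co-chaperone of Hspa5 like Dnajb11 and Dnajb9, was at 20.1 to 37.4 FPKM in Fth1-deleted and 18.3 to 26.7 in control libraries. Dnajb11 was at 47.2 to 65.8 FPKM in Fth1-deleted and 35.2 to 72.7 in control libraries. Dnajb9, which also restrains Ern1, was at 22.3, 19.4, 40.6 and 12.8 FPKM in Fth1-deleted libraries, against 20.6, 33.3 and 22.9 in control libraries. Sil1, the second nucleotide exchange factor of Hspa5, was at 75.1, 40.9, 38.6 and 46.9 FPKM in Fth1-deleted libraries, against 33.9, 33.0 and 104 in control libraries. Dnajb9 and Sil1 were the lumenal chaperones whose log2 difference was below 0 (-0.19, SE 0.39, and -0.01, SE 0.39).

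**Figure D3:**
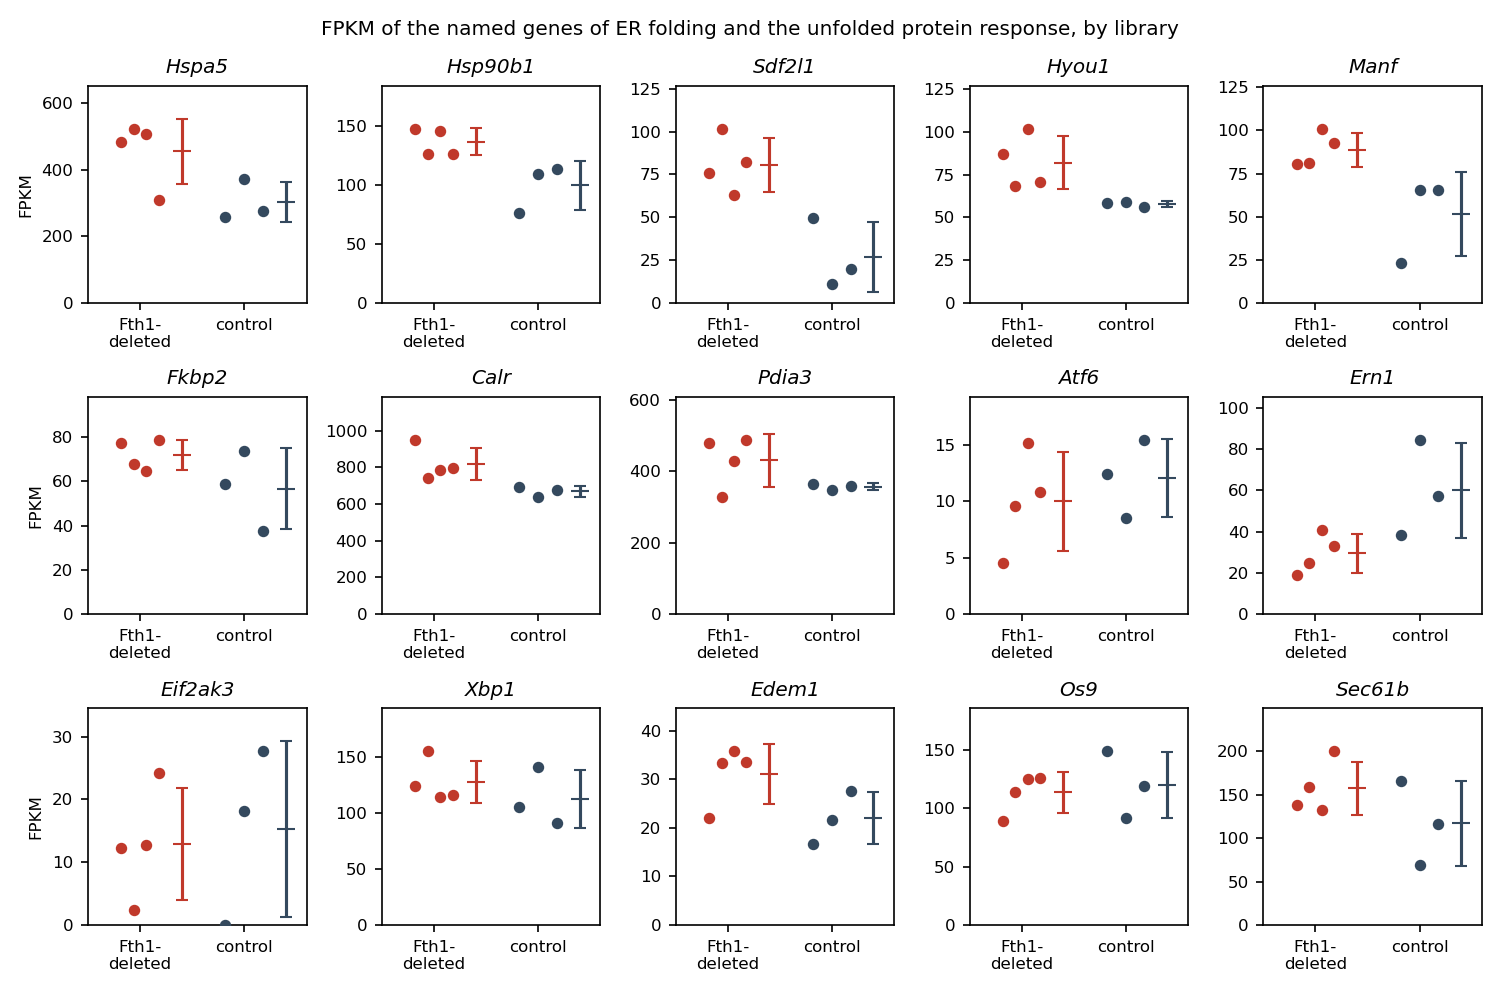
FPKM (linear axes from 0) of 15 genes in each Fth1-deleted library (red, left) and each control library (dark, right), with the mean and SD beside the points. Sdf2l1, Hsp90b1, Hyou1, Manf and Calr have every Fth1-deleted point above every control point, and Ern1 has its highest points in control libraries.

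The lectin chaperones Calr and Canx, which hold glycoproteins by their sugar and bind calcium, were among the most abundant RNAs. Calr (ENSMUSG00000003814, chromosome 8, 84841850 to 84846934) had a mean FPKM above that of 99.3% of tested genes. It was at 947, 744, 788 and 796 FPKM in Fth1-deleted libraries, against 693, 636 and 677 in control libraries. The groups did not overlap, the ratio of means was 1.22, and limma gave a log2 difference of 0.29 (SE 0.15, adjusted p = 0.576). Canx was at 254, 237, 245 and 264 FPKM in Fth1-deleted libraries and at 226, 182 and 267 FPKM in control libraries, with control 3 just above the highest Fth1-deleted library (log2 difference 0.17, SE 0.17).

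Disulfide isomerases and their oxidases, which form and reshuffle disulfide bonds, had no gene with groups apart. Of the 6 genes 4 had a log2 difference above 0 and none an unadjusted p under 0.05 (median 0.20, range -0.22 to 0.38). Pdia3, which works with Calr and Canx, was at 479.7, 327, 428 and 486 FPKM in Fth1-deleted libraries, against 365, 347 and 359 in control libraries. Fth1-deleted 2 lay below the controls and the other 3 above them (log2 difference 0.25, SE 0.17). P4hb, the founding isomerase of the family, averaged 365 ± 47.8 FPKM in Fth1-deleted (SD, n = 4) and 370.1 ± 53.9 FPKM in control libraries (SD, n = 3). Pdia6 was at 206 to 290.3 FPKM in Fth1-deleted and 196 to 233 in control libraries. Pdia4 was at 69.9 to 118 FPKM in Fth1-deleted and 55.7 to 80.6 in control libraries. The oxidase genes pointed in opposite directions: Ero1l averaged 32.2 ± 6.89 and 37.8 ± 9.16 FPKM in Fth1-deleted and control libraries (log2 difference -0.22, SE 0.29), and Ero1lb 10.1 ± 3.98 and 7.29 ± 2.14 (0.38, SE 0.47).

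Of the 4 sensor and transcription factor genes 2 had a log2 difference above 0 and 2 below (median -0.06). Ern1, the kinase and RNase that splices Xbp1 RNA, was at 18.9, 24.9, 40.8 and 32.9 FPKM in Fth1-deleted libraries, against 38.5, 84.2 and 57.2 in control libraries. Only Fth1-deleted 3 reached the range of the controls, where it lay just above control 1. The mean was 2.04-fold lower in Fth1-deleted libraries, with a log2 difference of -0.99 (SE 0.34, unadjusted p = 0.0120 and adjusted p = 0.383 in limma). The gene lies on chromosome 11 from 106394650 to 106487852. Without control 2, its highest library, the log2 difference was -0.72, and with the ribosomal RNA covariate -1.81. Xbp1, the factor that Ern1 activates, was at 124, 155, 115 and 117 FPKM in Fth1-deleted libraries and at 105, 142 and 91.3 FPKM in control libraries. Its groups overlapped (log2 difference 0.19, SE 0.21). The log2 difference was 0.053 to 0.37 with 1 library left out, lowest without control 3, and turned to -0.29 with the ribosomal RNA covariate. Gene-level values do not separate spliced from unspliced Xbp1.
Atf6, the membrane-held transcription factor, was at 4.51, 9.60, 15.2 and 10.8 FPKM in Fth1-deleted libraries, against 12.4, 8.52 and 15.4 in control libraries. The log2 difference was -0.32 (SE 0.47). It was -0.018 without Fth1-deleted 1, the lowest library, and -0.14 without control 3, and turned to 0.085 with the ribosomal RNA covariate. Eif2ak3, the kinase that phosphorylates the initiation factor subunit Eif2s1, was at 12.2, 2.36, 12.8 and 24.3 FPKM in Fth1-deleted libraries and at 0, 18.2 and 27.7 FPKM in control libraries. No read was counted in control 1, where 3 reads are the limit that a count of 0 allows, against 520 and 632 reads in controls 2 and 3. The log2 difference of 0.44 (SE 1.03) rested on that library and turned to -1.07 without it.

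Genes of ER-associated degradation, which draws failed proteins back to the cytosol, showed no common direction. Of the 11 genes 6 had a log2 difference above 0 and 5 below (median 0.07), and none had an unadjusted p under 0.05 or groups apart. Edem1, which trims mannose from misfolded glycoproteins, was at 22.0, 33.3, 35.7 and 33.5 FPKM in Fth1-deleted libraries, against 16.8, 21.7 and 27.6 in control libraries. Fth1-deleted 1 lay among the controls and the other 3 above them (log2 difference 0.49, SE 0.30, limma adjusted p = 0.635), and the log2 difference was 0.31 without control 1. Edem2, of the same enzyme family, was at 76.6, 74.3, 95.2 and 73.9 FPKM in Fth1-deleted libraries and at 87.7, 87.6 and 87.6 FPKM in control libraries. Herpud1, a stress-induced scaffold of the complex, was at 79.6, 144, 101 and 87.8 FPKM in Fth1-deleted libraries, against 87.4, 80.9 and 81.5 in control libraries.
Os9, the lectin that delivers glycoproteins to the complex, was the most abundant gene of the group. Its FPKM was 88.9, 114, 125 and 126 in Fth1-deleted libraries, against 148, 91.7 and 119 in control libraries (log2 difference -0.06, SE 0.22). The sign turned without Fth1-deleted 1 (0.048) or control 1 (0.10) and with the ribosomal RNA covariate (0.34). Sel1l and Syvn1, the adaptor and the ubiquitin ligase at the core, averaged 38.8 ± 7.12 and 23.6 ± 3.05 FPKM in Fth1-deleted libraries, against 44.3 ± 11.5 and 22.7 ± 6.16 in control libraries. The channel proteins Derl1 and Derl2 averaged 72.9 ± 15.4 and 28.0 ± 2.29 FPKM in Fth1-deleted libraries, against 62.7 ± 19.0 and 31.6 ± 13.9 in control libraries. The selenoproteins of the complex pointed in opposite directions. Selenok averaged 66.6 ± 6.12 and 83.3 ± 13.7 FPKM in Fth1-deleted and control libraries (log2 difference -0.31, SE 0.21), and Selenos 30.3 ± 14.6 and 24.0 ± 8.46 (0.20, SE 0.46).

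Derl3, the derlin of secretory cells such as plasma cells, was at 8.31, 0, 0 and 1.14 FPKM in Fth1-deleted libraries (99, 0, 0 and 13 reads) and at 0 in all 3 control libraries. It was seen only in Fth1-deleted 1 and 4. The 13 markers of B lineage and plasma cells, a list that holds Derl3 itself, summed to 1285, 32.2, 446 and 3955 FPKM in Fth1-deleted libraries, against 41.7, 29.2 and 673 in control libraries. Fth1-deleted 1 and 4 had the highest sums. In them 13 and 12 of the markers were detected. Ighm (592 and 1398 FPKM) and Igkc (626 and 2345) held most of their sums, and were at 307 and 311 in control 3. Vpreb1, Igll1 and Ebf1 were at 0 in all controls, but Vpreb1 was also at 9.71 and 29.5 FPKM in Fth1-deleted 2 and 3. Pax5 was highest in control 1 (8.77 FPKM) and Cd79b in control 2 (26.2 FPKM). The part of such cells in the Derl3 value was not tested.

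The 2 genes of translocation into the ER differed in sign. Sec61b, a subunit of the Sec61 channel, was at 138, 159, 132 and 199.5 FPKM in Fth1-deleted libraries and at 166, 68.7 and 116 FPKM in control libraries. Control 1 lay within the Fth1-deleted range (log2 difference 0.50, SE 0.28, limma adjusted p = 0.597). It was 0.16 without control 2 and 0.79 without control 1, and 1.38 with the ribosomal RNA covariate. Its value is uncertain, since 22.8% of its longest transcript is 99.4% identical to a transcript of Gm10320, annotated as protein-coding, which had a mean of 3.70 FPKM. Near-identical copies were also found for Selenok, Derl1 and Ero1lb, with means of 0, 2.06 and 0.314 FPKM over all libraries. Ssr1, a subunit of the translocon-associated complex, averaged 81.5 ± 5.26 FPKM in Fth1-deleted (SD, n = 4) and 88.8 ± 7.41 FPKM in control libraries (SD, n = 3).

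**Figure D4:**
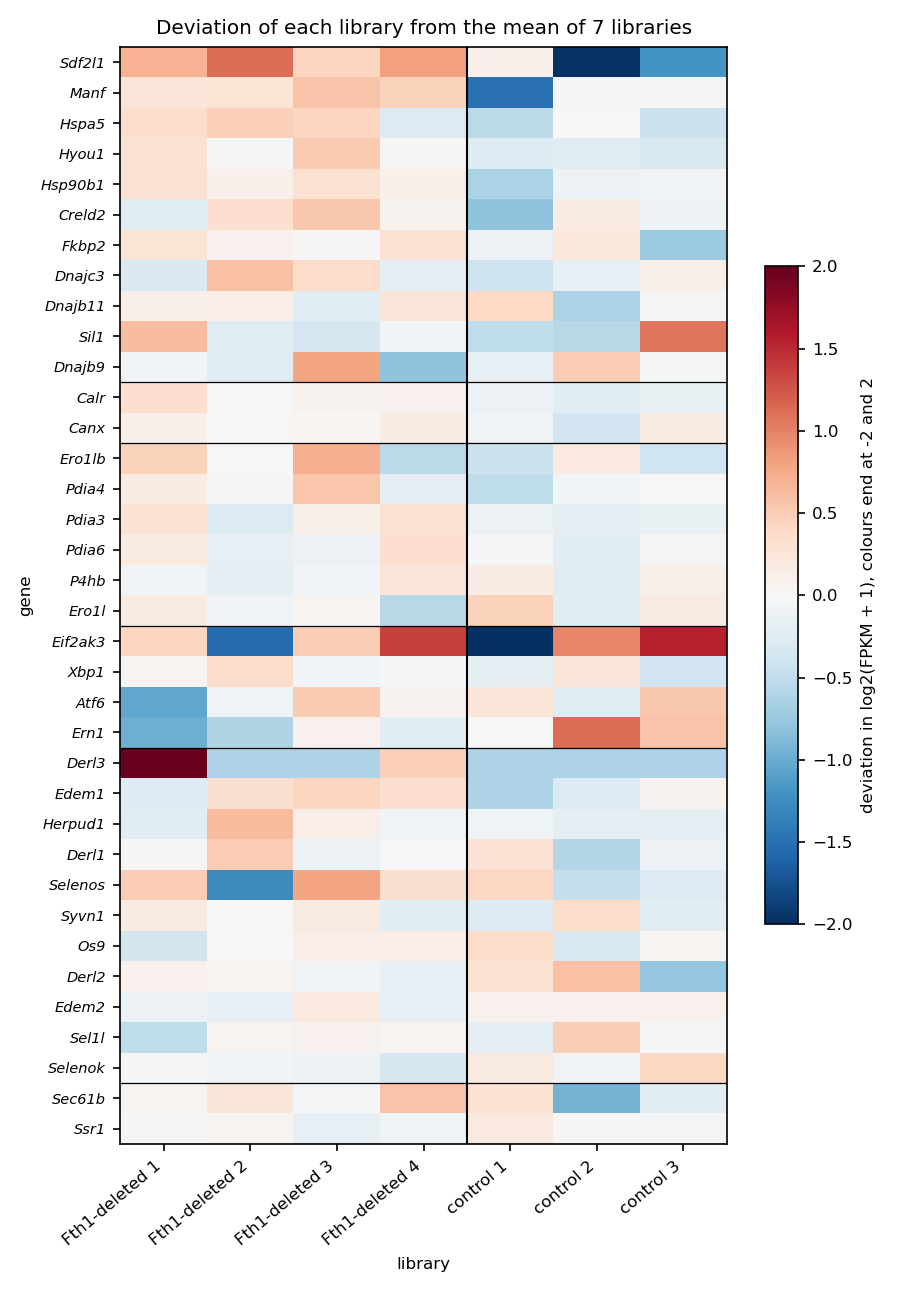
Deviation of each library from the gene's mean over 7 libraries in log2(FPKM + 1), with Fth1-deleted libraries left of the line, control libraries right of it, and horizontal lines between role groups; colours end at -2 and 2. Sdf2l1, Manf and Hsp90b1 are above their mean in each Fth1-deleted library, and Eif2ak3 and Derl3 vary most between libraries of 1 group.

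All 12 genes with ERSE or ERSE-II had a log2 difference above 0 (median 0.28, lowest 0.07 for Syvn1), against 48.7% of all tested genes. Of the 19 genes with a window and neither element, 9 did (median -0.02). This split was made with results of these data known and is a description without a test. Only Hspa5 and Hsp90b1 of the 12 had an unadjusted p under 0.05 in limma (16.7%, against 4.9% of all tested genes higher). None of the 12 passed the adjusted threshold. Several differences were smaller than their SE, as for Syvn1 (SE 0.30), Pdia6 (0.14, SE 0.18) and Dnajb11 (0.16, SE 0.27). Sdf2l1, with the largest difference, is among the 19, and Derl3, Hspa5 and Hsp90b1 lead the 12. Derl3 does so with 99 and 13 reads in 2 libraries and 0 in the others (SE 0.93). The count above 0 was 9 of 12 with the ribosomal RNA covariate, against 10 of the 19. It was 11 of 12 with TPM, with a Y-linked term or without any 1 of the control libraries. Of the 19 it was then 9 with TPM, 11 with the Y-linked term, and 11, 12 and 10 without controls 1, 2 and 3. Outside the 36 genes, 37 genes had either element. Of these 15 were tested, and 9 of the 15 had a log2 difference above 0 (median 0.16).

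A wider set of 112 pathway genes was drawn up by function, of which 110 were tested, Chac1 and Kdelr3 being at 0 throughout. None passed the threshold in limma or in limma-voom. At an unadjusted p under 0.05 there were 8 higher (7.27%) and 5 lower (4.55%), and groups did not overlap in 6 genes higher (5.45%) and 6 lower (5.45%). These shares lie near those of all tested genes (4.9% and 4.93%, 4.1% and 5.55%), and the median log2 difference was 0.05.
The list of the Eif2ak3 and Atf4 arm, which raises amino acid supply and stress genes when Eif2s1 is phosphorylated, had a median of -0.33 over 11 tested genes, 5 of them above 0 (45.5%, against 48.7% of all tested genes). At an unadjusted p under 0.05 there were 3 lower (27.3%, against 4.93%) and 1 higher (9.09%, against 4.9%), and none passed the adjusted threshold. Nupr1, a stress-induced nuclear protein, was at 18.3, 36.1, 24.4 and 13.0 FPKM in Fth1-deleted libraries, against 76.2, 48.9 and 44.8 in control libraries. The groups did not overlap (log2 difference -1.32, SE 0.35, limma adjusted p = 0.271). Eif2s1 itself was at 74.8, 57.8, 74.5 and 80.4 FPKM in Fth1-deleted libraries, against 41.2, 41.8 and 54.0 in control libraries, also without overlap (log2 difference 0.64, SE 0.22, limma adjusted p = 0.392). Atf4 and Ddit3, chosen after their values were seen, averaged 126 ± 18.1 and 17.2 ± 1.88 FPKM in Fth1-deleted libraries, against 109 ± 12.3 and 16.2 ± 4.44 in control libraries. Trib3, a target of Atf4 and Ddit3 also chosen after its values were seen, was at 3.49, 15.4, 3.99 and 7.87 FPKM in Fth1-deleted libraries, against 20.9, 35.4 and 12.4 in control libraries (log2 difference -1.54, SE 0.54). Asns, the asparagine synthetase and a target of Atf4, chosen in the same way, was at 17.1, 7.31, 9.43 and 29.0 FPKM in Fth1-deleted libraries, against 33.1, 31.9 and 22.3 in control libraries (log2 difference -1.01, SE 0.44). Their groups overlapped.

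The translocon, signal peptidase and oligosaccharyltransferase list had 19 of 27 genes above 0 (70.4%, against 48.7% of all tested genes; median 0.15). An unadjusted p under 0.05 was reached by 3 of them, all higher (11.1%, against 4.9%). Ssr2, of the same complex as Ssr1, was at 239, 251, 215 and 198 FPKM in Fth1-deleted libraries and at 175, 110.0 and 189 FPKM in control libraries, with no overlap (log2 difference 0.54, SE 0.21). It was 0.30 without control 2 and 1.18 with the ribosomal RNA covariate. Spcs3, a signal peptidase subunit, averaged 50.5 ± 7.23 and 32.6 ± 10.9 FPKM in Fth1-deleted and control libraries. Of the 23 other folding genes 11 were above 0 (median -0.02). Their groups lay apart in 2 genes higher and 2 lower (8.7% each, against 4.1% and 5.55% of all tested genes). At an unadjusted p under 0.05 there were 3 higher (13%, against 4.9%) and 0 lower. The isomerase Tmx1 was at 60.3 ± 7.99 and 35.1 ± 14.7 FPKM in Fth1-deleted and control libraries. The peroxiredoxin of the ER, Prdx4, was at 64.6 ± 12.7 and 38.8 ± 12.4 FPKM.
Among 19 tested genes of ER exit, 13 were above 0 (median 0.04). Sec24d, a cargo subunit of the transport coat, was at 29.8, 25.8, 44.7 and 26.0 FPKM in Fth1-deleted libraries, against 8.11, 14.6 and 19.4 in control libraries. These groups lay apart, with a ratio of means of 2.25 (log2 difference 1.16, SE 0.36, limma adjusted p = 0.349). Sec31a, of the outer coat, averaged 95.3 ± 14.0 FPKM in Fth1-deleted and 125 ± 14.1 in control libraries. The 21 other genes of degradation had 12 above 0 (median 0.07). Ufd1, which pulls out ubiquitinated proteins with Vcp, averaged 40.6 ± 15.1 and 70.6 ± 11.4 FPKM, and Fam8a1, a cofactor of Syvn1, 17.5 ± 4.94 and 30.8 ± 7.92 in Fth1-deleted and control libraries. In the 9 other sensors and proteases, 4 were above 0 (median -0.07). Creb3l2, a membrane-held factor related to Atf6, averaged 9.38 ± 3.24 and 18.2 ± 6.16 FPKM, and Mbtps2, the protease that releases Atf6, 8.11 ± 2.17 and 15.6 ± 7.67 in Fth1-deleted and control libraries. Among these pathway genes the log2 difference of Spcs3, 0.66, was 0.37 without control 1. That of Tmx1, 0.84, was 0.53 without control 3, and that of Prdx4, 0.75, was 0.49 without control 2. That of Ufd1, -0.86, was -0.56 without Fth1-deleted 2, and that of Mbtps2, -0.78, was -0.45 without control 2.

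**Figure D5:**
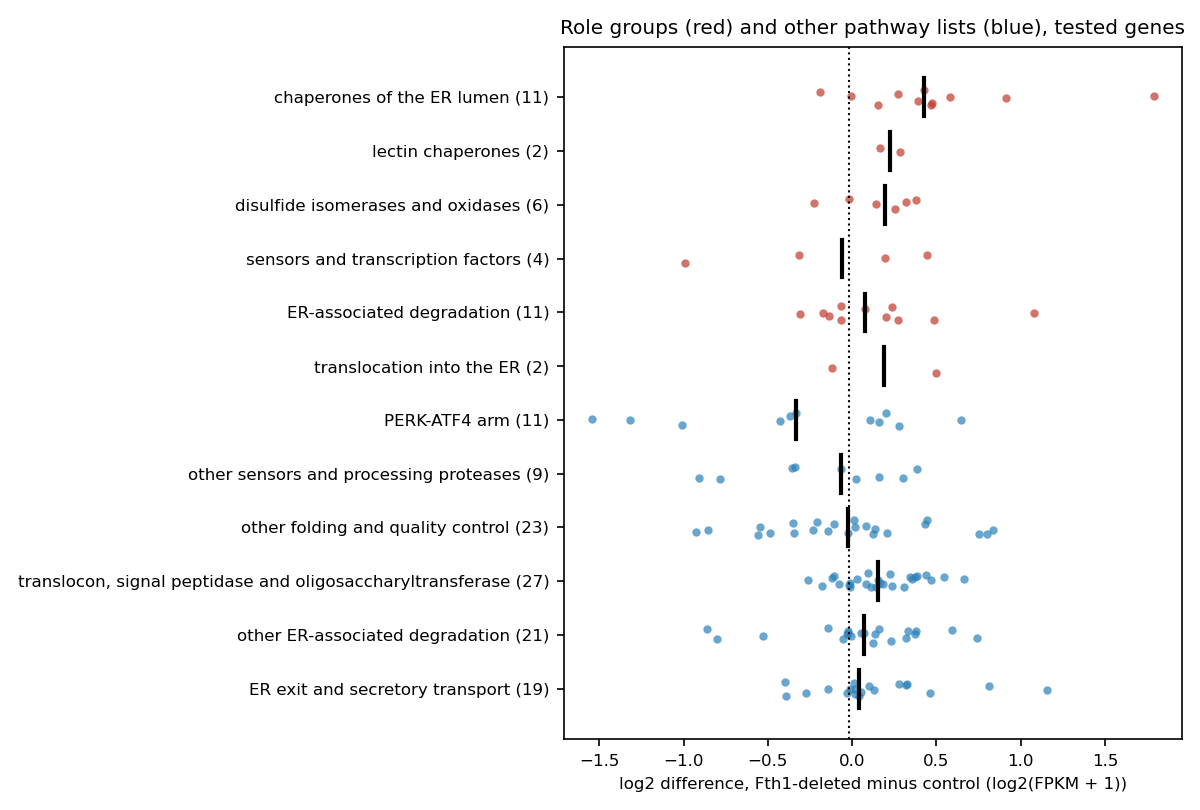
Log2 difference of each tested gene (Fth1-deleted minus control, from log2(FPKM + 1)) in the role groups (red) and the other pathway lists (blue), with the number tested in brackets. Thick bars are list medians, highest at 0.43 for chaperones of the ER lumen and lowest at -0.33 for the PERK-ATF4 arm (PERK is the protein of Eif2ak3); the dotted line is the median of all tested genes, -0.017.

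Reads of Y-linked genes split the libraries in another way. They were present in Fth1-deleted 1 to 3 and control 2, and absent in Fth1-deleted 4 and controls 1 and 3. Within libraries with such reads (3 Fth1-deleted, 1 control) 25 of the 36 genes had a positive difference, against 47.2% of all tested genes. The median was 0.27, against -0.025 for all tested genes. Within libraries without them (1 Fth1-deleted, 2 control) 24 did, against 46.1% (median 0.11, against -0.0031). Among the 5 libraries with over 0.5% ribosomal RNA, all Fth1-deleted libraries and control 2, the count was 24 of 36, against 46.8%. The median was 0.27, against -0.047. Control 2 was the only control both here and among libraries with Y-linked reads, so these splits are not independent. Each split also left 1 library in 1 of its groups, so the counts of genes are a description and not a replication.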

How the data were processed

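RNA of 7 HSC libraries (4 Fth1-deleted, 3 control) was analysed. Per the series text and the submitters' processing notes, the authors aligned paired-end reads to GRCm38 with HISAT2 2.0.4, counted reads per gene with HTSeq 0.9.1 and deposited FPKM computed from gene length and reads. Scaling between libraries, annotation release, strand setting and filters are not given in the sources used here. Of 55855 identifiers 55480 matched GENCODE M21, whose mean transcript length, multiplied by FPKM, gave whole reads (98.9% to 99.5% of values below 50 reads, within 0.05). A single read on 1 kb is worth 0.0647 to 0.0829 FPKM. Floors cover counting error only.

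From these values log2(FPKM + 1) was computed, and the 13948 genes averaging 1 FPKM or more entered a two-sided limma-trend fit without covariates (R 4.3.3, limma 3.58.1; Benjamini-Hochberg, threshold 0.05). FPKM are mean ± SD. Members, lists and tests were chosen with earlier results of these data known. Named are members with groups apart, the 10 smallest p, the sensors, the most abundant of each role group, and for each pathway list the 2 smallest p. Copies of 95% identity over 20% of a transcript were sought with BLAST. Promoters are from RefSeq (GRCm38.p6). Alternatives were other pseudocounts (0.1, 5), filters (none, 5), size factors, TPM, no trend, arrayWeights, replicate block, limma-voom, a ribosomal RNA covariate and each library left out. A Y-linked term and protein-coding genes only were added after seeing the data.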

Additional observations from a re-analysis of the deposited data

Results flagged for a closer look

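In 3 of the 36 genes a single Fth1-deleted library stood apart from the other 3 by more than Dixon's criterion for 4 values (its gap to the nearest other value, as a part of the group's range), which chance passes in about 5% of groups. Edem2 was at 95.2 FPKM in Fth1-deleted 3, above the others (gap 0.872 of the range). Sel1l was at 28.2 FPKM in Fth1-deleted 1, below the others (0.946). Derl3 was at 8.31 FPKM in Fth1-deleted 1, above the others (0.863).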

How the results depend on the processing

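None of the 36 genes passed the threshold under any alternative except Sdf2l1 without control 1 (0 to 1 genes past it when 1 library was left out), and 0 of the other pathway genes passed under any. The count of genes with a positive difference was 23 to 26, and the median difference of the 36 was 0.14 to 0.25. Against 8 of all tested genes past the threshold, there were 0 without a filter, 17 without a trend, 5 with limma-voom on recovered reads, 28 with the ribosomal RNA covariate, 17 with the Y-linked term, 4 among protein-coding genes only, and 0 to 19 with 1 library left out. Against 6 of the 36 genes at an unadjusted p under 0.05, there were 2 without a trend and 3 to 6 with 1 library left out. Over all tested genes the counts were 1371 of 13948 in the main fit and 1267 of 13948 without a trend. Without control 1 and without Fth1-deleted 3 there were 3 of the 36, against 1626 of 13903 and 1224 of 13900. In these 2 fits and without a trend, the share among the 36 was below that of all tested genes. Groups lay apart in 5 genes, all higher, and in 6 to 10 with 1 library left out (5 to 9 higher, 0 to 2 lower). The share of all tested genes also rose, to between 5.32% and 9.19% higher (from 4.1%) and between 6.9% and 11.8% lower (from 5.55%). Signs turned for Fkbp2 (-0.16), Atf6 (0.085), Xbp1 (-0.29), Os9 (0.34) and Eif2ak3 (-0.89) with the ribosomal RNA covariate, for Eif2ak3 without control 1 (-1.07 to 1.35 over the libraries left out), and for Os9 without Fth1-deleted 1 (0.048) and without control 1 (0.10; -0.242 to 0.103 over the libraries left out) and with the Y-linked term (0.088). The cause was not tested, and the ribosomal RNA covariate nearly follows the groups except in control 2. The log2 difference of Fth1 was -1.74 with the Y-linked term (limma adjusted p = 0.0491, 0.0491 to 0.684 over all alternatives).

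Correlations of the deviations of libraries with the same replicate number were 0.0090, 0.061 and -0.037, against -0.090 to 0.080 for unlike numbers. A pairing by number was not seen, but these values cannot exclude one. With the replicate block, in which Fth1-deleted 4 carries no information, 0 genes passed the threshold (987 at an unadjusted p under 0.05), and 26 of the 36 genes had a positive difference. Derl3, at 99 and 13 reads, was not tested without Fth1-deleted 1 or with a minimum mean of 5 FPKM.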
